A study of Mus musculus with 6 samples.

Results

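Calcineurin-NFAT signalling was followed in heart RNA through 10 genes, chosen by symbol from the 22298 genes of the deposited expression table: the phosphatase subunits Ppp3ca, Ppp3cb and Ppp3r1, the factors Nfatc1, Nfatc2, Nfatc3 and Nfatc4, the calcineurin regulators Rcan1 and Rcan2, and the Z-disc protein gene Myoz2. All 10 were found and all passed the filter on low counts. The libraries came from hearts of wild-type (WT) female mice aged 18 months, 3 after TAC surgery and 3 after sham surgery. TAC usually stands for transverse aortic constriction, which loads the left ventricle with pressure. The sources at hand give no strain, no part of the heart and no time from surgery to sampling. The labels number 3 separate hearts in each group, 1 library each, so the p-values reflect the spread among hearts together with that of library making.

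Calcineurin is a serine/threonine phosphatase made of a catalytic subunit and a regulatory subunit that binds calcium, and calcium with calmodulin switches it on. It removes phosphates from the NFATC factors, which then enter the nucleus and act with GATA4 and MEF2 on genes of cardiac hypertrophy, until kinases rephosphorylate them and the exportin XPO1 carries them out. RCAN proteins bind calcineurin and can restrain it, and a transcript that starts inside Rcan1 is itself switched on by calcineurin and NFAT, so it is widely used as a readout of the pathway. Myozenin 2 (calsarcin-1), encoded by Myoz2, tethers calcineurin to the Z-disc of the sarcomere and restrains it in mice.

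Rcan1 (ENSMUSG00000022951) lies on chromosome 16 from 92391953 to 92470867 on the minus strand in GRCm38. RefSeq promoters, from 250 bases before to 50 bases after a start in GRCm38.p6, were at hand for 8 of the 10 members, with 13 starts in all. The NFAT core GGAAA was searched on both strands, and 61.3% of all 32851 promoters of this length held it at least once. Both Rcan1 promoters at hand are shown because their letters differ in this core, which is in capitals (GGAAA, or TTTCC where it lies on the other strand). The counts below add up all transcripts of the gene, whatever their start.
Rcan1 upstream start, chr16:92466120-92466419, minus strand: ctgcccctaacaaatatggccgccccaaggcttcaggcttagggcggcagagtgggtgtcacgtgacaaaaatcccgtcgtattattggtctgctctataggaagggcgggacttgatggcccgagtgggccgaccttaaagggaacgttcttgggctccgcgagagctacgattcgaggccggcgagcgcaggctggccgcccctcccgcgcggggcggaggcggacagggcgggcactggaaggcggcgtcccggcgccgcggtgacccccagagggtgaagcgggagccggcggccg
Rcan1 internal start, chr16:92400029-92400328, minus strand: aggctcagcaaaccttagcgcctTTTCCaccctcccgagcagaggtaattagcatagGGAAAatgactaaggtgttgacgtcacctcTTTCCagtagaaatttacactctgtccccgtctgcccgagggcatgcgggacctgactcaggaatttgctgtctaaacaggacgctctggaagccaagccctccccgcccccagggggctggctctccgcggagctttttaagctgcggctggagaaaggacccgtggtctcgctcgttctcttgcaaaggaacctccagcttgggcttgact

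The upstream start lies 4698 bases inside the gene from its 5' end. The internal start lies 70789 bases inside the gene from its 5' end, 1 base from the start of the GENCODE transcript Rcan1-201. Its promoter held the core 3 times, with first bases 227, 193 and 163 bases before the start, where 9.42% of all promoters held at least 3. It also held the AP-1 letters TGANTCA once, 110 bases before the start and apart from the cores, and 7.81% of all promoters held those. The promoter of the upstream start held neither motif. Of the other members, Ppp3cb had 4 cores in its promoter, Nfatc4 had 3, Myoz2 had 2, and Nfatc2 had 3 at one start and 1 at the other. Rcan2 had 2 cores at 1 of its 3 starts, Nfatc3 had 1 core at 1 of its 2 starts, and Ppp3r1 had none. The AP-1 letters were also present in the promoter of Myoz2 and at another start of Rcan2. A match of letters describes the sequence and is not a bound site.

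None of the 10 genes was called different between TAC and sham hearts: 0 were called higher and 0 lower by the quasi-likelihood test of edgeR, with p-values adjusted by Benjamini-Hochberg over 13708 genes and a threshold of 0.05. Over all tested genes, 1.12% were called higher and 0.54% lower. At an unadjusted p under 0.05 there was 1 member, Ppp3ca, against 25.6% of all tested genes. At an adjusted p under 0.10 there was 1 called higher, Ppp3ca, against 8.25% of all tested genes. Of the members, 7 had a positive and 3 a negative log2 fold change, with a median of 0.025 beside 0.027 over all tested genes, and 7 lay within 0.3 of 0. The 3 that lay farther out were Rcan1, Ppp3ca and Myoz2.

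**Figure D1:**
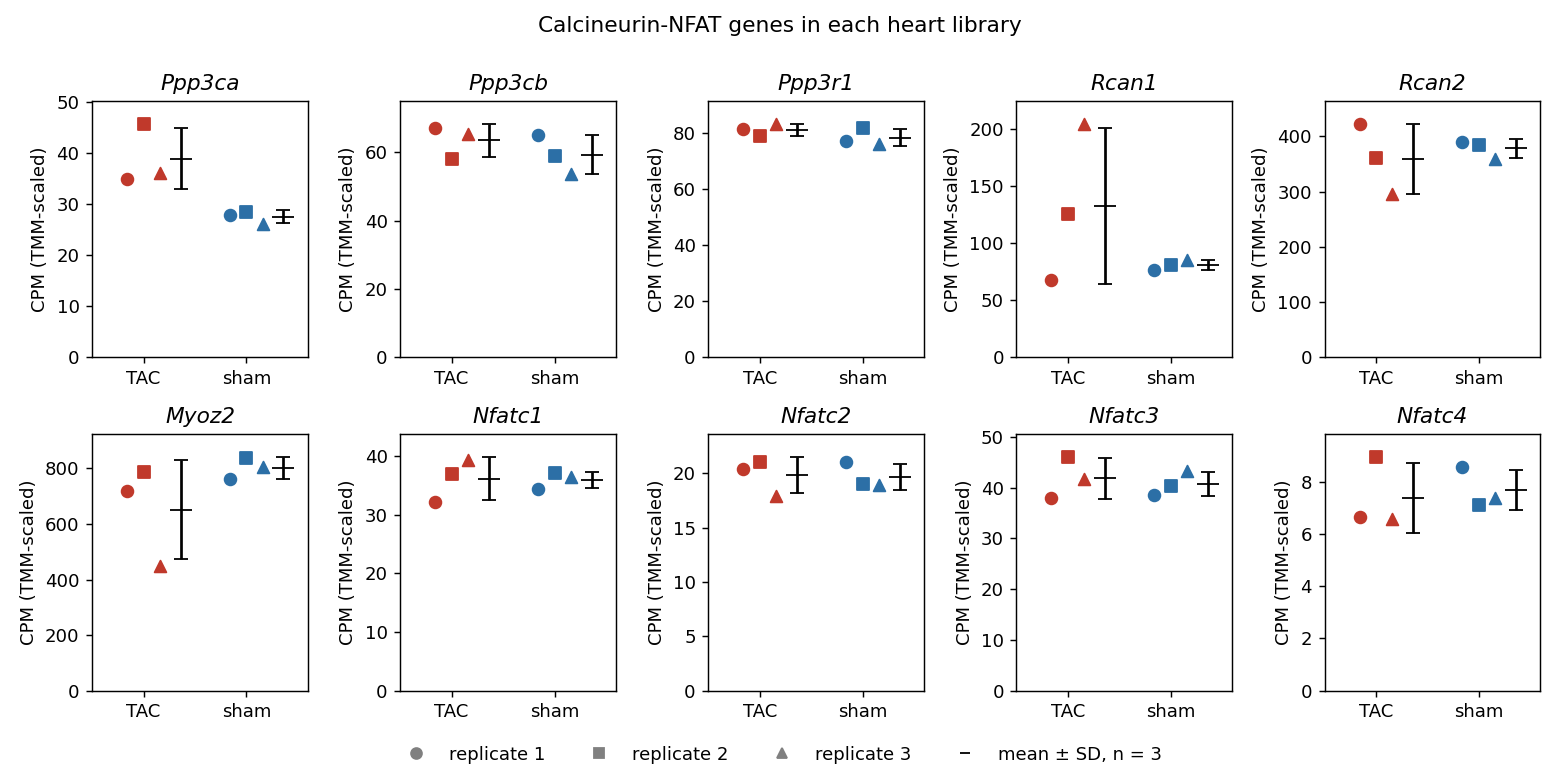
CPM, the counts scaled to TMM-adjusted library size, of the 10 genes in each library, TAC left and sham right, with symbols for the replicate and bars for the mean ± SD (n = 3 each). Ppp3ca is the only gene whose TAC values all lie above its sham values, and Rcan1 spreads from 67.3 to 204 CPM in TAC against 76.1 to 85.3 CPM in sham.

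Rcan1 was high in 2 of the 3 TAC hearts and low in the other. In CPM, which are counts scaled to library size by the TMM method, its level was 67.3, 125 and 204 CPM in TAC replicates 1, 2 and 3, against 76.1, 81.0 and 85.3 CPM in sham replicates 1, 2 and 3. TAC replicate 1 lay below every sham library while TAC replicates 2 and 3 lay above all of them, so the groups overlapped. The means were 132 ± 68.6 CPM in TAC and 80.8 ± 4.62 CPM in sham (SD, n = 3 each), 1.64-fold higher in TAC, with a log2 fold change of 0.71 (SE 0.33, 95% interval -0.059 to 1.48, edgeR adjusted p = 0.223). By exact permutation, two-sided, p was 0.4, and no split of 3 against 3 can give a p under 0.1. In FPKM, which is also scaled by gene length, the order of libraries was similar, with 29.5, 58.2 and 100.6 in TAC replicates 1, 2 and 3, against 35.2, 36.2 and 41.1 in sham.

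The coefficient of variation of Rcan1 was 51.9% among TAC libraries and 5.72% among sham libraries, where the medians over all tested genes were 18.0% and 9.20%. The spread among TAC libraries was at or above that of 92.9% of tested genes, and the spread among sham libraries at or above that of 28.2%. Without TAC replicate 1, Rcan1 was called higher, with a log2 fold change of 1.01 (edgeR adjusted p = 0.0149), in a fit that called 13.2% of all genes higher. Leaving out TAC replicate 3 instead gave a log2 fold change of 0.24 (edgeR adjusted p = 0.581).

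Rcan2 (chromosome 17, 43801351 to 44039516, plus strand), the paralogue of Rcan1, ran the other way among the same TAC hearts. It stood at 422, 361 and 295 CPM in TAC replicates 1, 2 and 3, against 390, 385 and 359 CPM in sham. TAC replicate 1 was the highest of all libraries and TAC replicate 3 the lowest, with the sham libraries between them and TAC replicate 2 within their range. The log2 fold change, -0.074 (SE 0.16, 95% interval -0.44 to 0.29), did not pass (edgeR adjusted p = 0.794). Rcan3, outside the 10 members, had 21.2, 21.4 and 23.3 CPM in TAC and 23.9, 23.2 and 23.6 CPM in sham (log2 fold change -0.098, SE 0.11, edgeR adjusted p = 0.603).

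Within the summed FPKM of Rcan1, Rcan2 and Rcan3, Rcan1 made up 17.7%, 32.3% and 48.0% in TAC replicates 1, 2 and 3, against 20.8%, 21.7% and 24.3% in sham. In TAC replicate 3 Rcan1 nearly equalled Rcan2 per length, at a ratio of 0.968, and in the sham libraries the ratio lay between 0.275 and 0.334. The mean share of Rcan1 was 32.7 ± 15.1% in TAC and 22.3 ± 1.83% in sham (SD, n = 3 each), a difference of 10.4 percentage points that did not exceed the spread (exact two-sided permutation p = 0.4, and 0.75 adjusted over the 10 shares compared in the catalytic, NFATC and RCAN families). Without TAC replicate 1 the difference was 17.9 percentage points, and without TAC replicate 3 it was 2.76. Rcan3 made up 2.55%, 2.46% and 2.39% in TAC and 3.45%, 2.67% and 2.88% in sham, without overlap (exact permutation p = 0.1, adjusted 0.5). The summed FPKM of the family was 166, 180 and 209 in TAC and 169, 167 and 169 in sham.

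**Figure D2:**
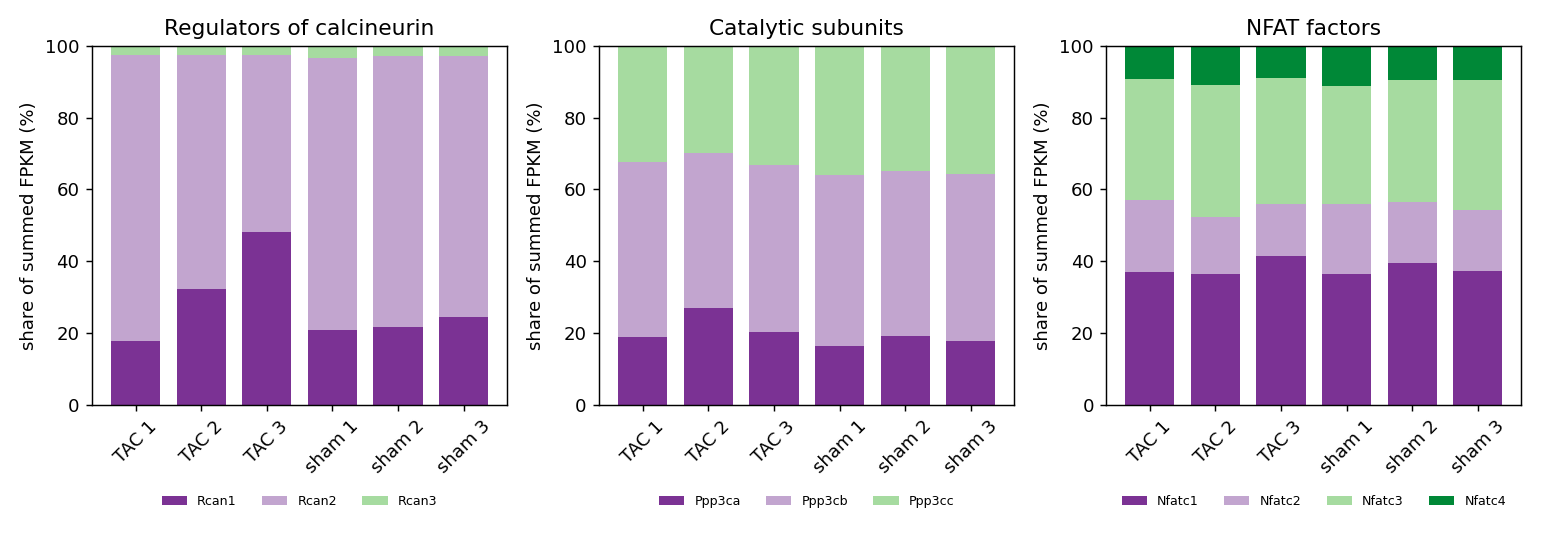
Share of each gene in the summed FPKM of its family (percent), per library, for the RCAN regulators, the calcineurin catalytic subunits and the NFATC factors, with TAC libraries left of sham libraries. The Rcan1 share reaches 48.0% in TAC replicate 3 and is 17.7% in TAC replicate 1. Among the NFATC factors, the Nfatc2 share is 20.1%, 15.9% and 14.4% in TAC replicates 1, 2 and 3, against 17.1% to 19.6% in sham. Nfatc1 has the largest NFATC share except in TAC replicate 2, where Nfatc3 is at 36.7% and Nfatc1 at 36.5%.

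Ppp3ca, which encodes the alpha catalytic subunit (chromosome 3, 136670124 to 136937727, plus strand), was the only member without overlap between the groups. Its level was 34.9, 45.7 and 36.1 CPM in TAC replicates 1, 2 and 3, against 27.9, 28.5 and 26.1 CPM in sham. All TAC libraries lay above all sham libraries, as for 18.4% of tested genes, and no member lay wholly below, as 13.1% of tested genes did. The means were 38.9 ± 5.92 CPM in TAC and 27.5 ± 1.22 CPM in sham (SD, n = 3 each), 1.41-fold higher in TAC, with a log2 fold change of 0.50 (SE 0.14, 95% interval 0.18 to 0.81) and an edgeR adjusted p = 0.0829, which did not pass. The exact permutation test gave the smallest p it allows, 0.1. DESeq2's Wald test put it past the threshold (adjusted p = 0.0411, with 7.81% of genes called higher), as did limma-voom with sample weights (adjusted p = 0.0237, with 10.1% called higher) and the edgeR fit without TAC replicate 1 (adjusted p = 0.0298). It did not pass in the other fits: the log2 fold change was 0.34 without TAC replicate 2 (edgeR adjusted p = 0.188), and the adjusted p was 0.112 without TAC replicate 3, 0.210 to 0.296 without any 1 sham library, and 0.174 by limma on log2 of FPKM plus 1.

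The FPKM of Ppp3ca were 8.11, 11.9 and 9.90 in TAC and 7.15, 7.76 and 6.81 in sham, again without overlap. The beta catalytic subunit gene Ppp3cb had 67.1, 58.1 and 65.5 CPM in TAC and 65.2, 59.0 and 53.7 CPM in sham. Its groups overlapped, and its log2 fold change was 0.10 (SE 0.12, 95% interval -0.17 to 0.37, edgeR adjusted p = 0.620). Ppp3r1, the gene of the regulatory subunit that binds calcium, had 81.6, 79.1 and 83.3 CPM in TAC and 77.3, 82.1 and 76.2 CPM in sham (log2 fold change 0.050, SE 0.099, 95% interval -0.18 to 0.28, edgeR adjusted p = 0.774). It was the steadiest of the 10 among TAC libraries, with a coefficient of variation of 2.58%. The table also lists Wdr92, which overlaps Ppp3r1 on the same strand.

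Per length, Ppp3cb was the most abundant catalytic subunit gene in every library, at 1.59 to 2.58 times the FPKM of Ppp3ca in TAC and 2.40 to 2.91 times in sham. The share of Ppp3ca in the summed FPKM of Ppp3ca, Ppp3cb and Ppp3cc was 18.9%, 27.1% and 20.1% in TAC, against 16.4%, 19.2% and 17.7% in sham, where the highest sham value lay above the lowest TAC value. The difference of 4.30 percentage points was 1.78 without TAC replicate 2 and 5.86 without TAC replicate 1. The share of Ppp3cc, the gamma catalytic subunit gene, was 32.4%, 29.8% and 33.3% in TAC and 35.9%, 35.0% and 35.6% in sham, below it in every TAC library (exact two-sided permutation p = 0.1, the smallest possible, and 0.5 adjusted over the 10 shares). Ppp3cc itself was level, at 28.4 ± 2.18 CPM in TAC and 28.5 ± 2.44 CPM in sham (SD, n = 3 each), and it did not pass (edgeR adjusted p = 0.970).

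**Figure D3:**
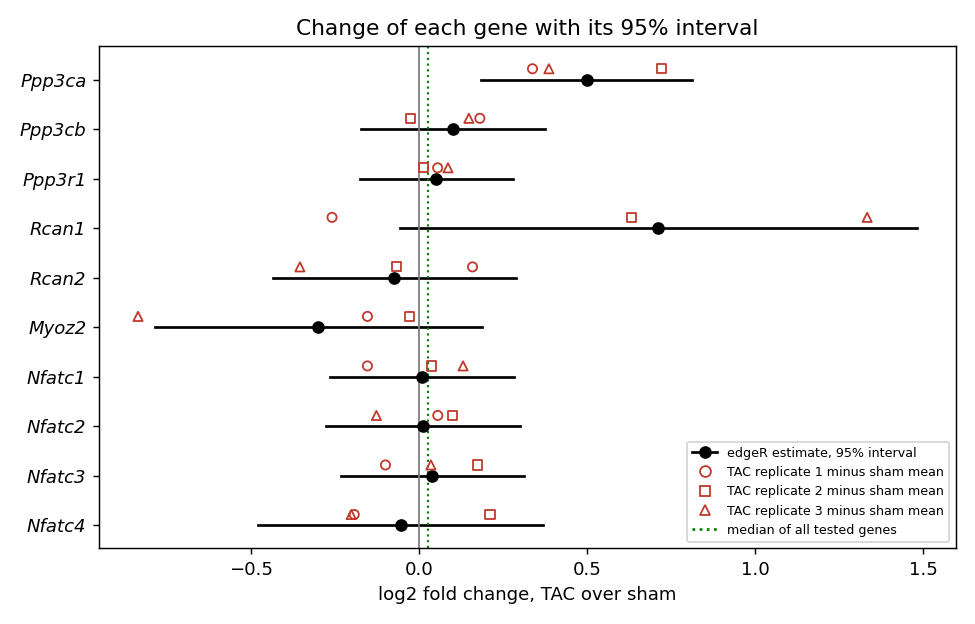
Log2 fold change of each gene, TAC over sham, as a filled point with its 95% interval (edgeR), open symbols for each TAC library minus the mean of the sham libraries, and a dotted line for the median of all tested genes. The interval of Ppp3ca, 0.18 to 0.81, is the only one that does not include 0, and the open symbols of Rcan1 lie on both sides of 0.

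The NFATC factors differed little between the groups. Nfatc1 had 32.2, 36.9 and 39.3 CPM in TAC replicates 1, 2 and 3, against 34.3, 37.0 and 36.4 CPM in sham. Nfatc2 had 20.4, 21.1 and 17.9 CPM in TAC, against 21.0, 19.0 and 19.0 CPM in sham. In both genes the TAC values lay on either side of the sham values, and these are the NFAT factors best known from lymphocytes, with Nfatc1 also known from the endocardium.

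Nfatc3, whose loss blunts calcineurin-driven hypertrophy in mice, had 37.9, 46.0 and 41.7 CPM in TAC and 38.6, 40.2 and 43.4 CPM in sham. Its deposited counts were fractional in 4 of the 6 libraries, and Esrp2 overlaps it on the opposite strand. Nfatc4, the least abundant of the 10, had 6.64, 8.94 and 6.59 CPM in TAC and 8.57, 7.10 and 7.39 CPM in sham. The log2 fold changes were 0.0083, 0.011, 0.039 and -0.056 for Nfatc1, Nfatc2, Nfatc3 and Nfatc4, with edgeR adjusted p-values in the same order of 0.972, 0.964, 0.859 and 0.873. The 95% intervals of Nfatc1, Nfatc2 and Nfatc3 all lay between -0.28 and 0.31, and that of Nfatc4 ran from -0.48 to 0.37. The signs of these small values were not stable and turned under other scalings or with 1 library left out.

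The summed FPKM of the NFATC genes was 18.6, 22.1 and 22.2 in TAC and 20.95, 20.7 and 22.3 in sham. Nfatc1 made up 38.3 ± 2.72% of it in TAC and 37.7 ± 1.63% in sham, and Nfatc3 35.2 ± 1.53% in TAC and 34.4 ± 1.74% in sham (SD, n = 3 each). Nfatc2 made up 16.8 ± 2.95% in TAC and 17.9 ± 1.45% in sham, and Nfatc4 9.72 ± 1.09% in TAC and 10.03 ± 1.07% in sham (SD, n = 3 each). None of these shares differed beyond its spread (exact two-sided permutation p of 0.5 to 0.8). For Nfatc2, FPKM and counts did not run in parallel. The length that links its counts to its FPKM, taken as the count divided by FPKM and by the library total, was 5217, 5927 and 5966 bases in TAC and 5052, 5286 and 5114 bases in sham, so FPKM was lower per count in TAC replicates 2 and 3. For Rcan1 the same length stayed between 2122 and 2208 bases in all libraries. The protein-coding GENCODE transcripts of Rcan1 include 2190 bases for Rcan1-201, from the internal start, and 2324 bases for Rcan1-202, from the upstream start, so the deposited values do not tell the starts apart.

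Myoz2 (chromosome 3, 123006206 to 123035015, minus strand) was the most abundant member and was lowest in TAC replicate 3. Its level was 720, 785 and 448 CPM in TAC replicates 1, 2 and 3, against 761, 837 and 806 CPM in sham. TAC replicate 2 lay inside the sham range, TAC replicate 1 just below it, and TAC replicate 3 far below. The log2 fold change of -0.30 (SE 0.21, 95% interval -0.79 to 0.19) did not pass (edgeR adjusted p = 0.398). Leaving out TAC replicate 3 brought it to -0.11 (edgeR adjusted p = 0.631). The summed CPM of 8 cardiomyocyte markers was 48046, 42931 and 33936 in TAC replicates 1, 2 and 3, against 47488, 48027 and 46556 in sham, and was thus also lowest in TAC replicate 3. The markers did not move as 1: 3 had a positive and 5 a negative log2 fold change. Myh6, the largest part, had 11526 CPM in TAC replicate 3 against 19105 to 20273 CPM in sham. Actc1, the next largest, had 10032 CPM there, inside its sham range of 9728 to 11398 CPM. The part of this sum in the Myoz2 value was not tested. In bulk tissue fewer cardiomyocytes cannot be told apart from less RNA in each.

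By length-scaled level, the order of the members in sham hearts was Myoz2 (682 FPKM), Rcan2 (126), Rcan1 (37.5), Ppp3r1 (27.5), Ppp3cb (19.2), Nfatc1 (8.03), Nfatc3 (7.34), Ppp3ca (7.24), Nfatc2 (3.82) and Nfatc4 (2.14). Nfatc1 and Nfatc3, and Nfatc3 and Ppp3ca, had overlapping ranges there, and all other neighbours were separate. In TAC hearts Ppp3ca (9.96 FPKM) stood before Nfatc1 (8.04) and Nfatc3 (7.38), each overlapping the next. Rcan1 (62.8 FPKM) overlapped Ppp3r1 (28.4) in TAC, because TAC replicate 1 had 29.5 FPKM of Rcan1.

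The wider pathway was read from 6 gene lists arranged by role. In the list of NFAT kinases and nuclear export, 1 of 13 tested genes was called higher, 0 lower and 12 did not pass (median log2 fold change -0.016), beside 1.12% of all tested genes called higher. Without TAC replicate 1, where 13.2% of genes were called higher and 10% lower, this list had 2 called higher, Xpo1 and Csnk1a1, and 2 lower, Dyrk1b and Prkaca, of which all but Xpo1 are kinase genes named after their values were seen. The gene called was Xpo1, the exportin that returns NFAT and many other proteins to the cytoplasm (chromosome 11, 23256041 to 23298249). It had 40.6, 47.8 and 61.2 CPM in TAC replicates 1, 2 and 3, against 29.2, 21.7 and 19.8 CPM in sham. Every TAC library lay above every sham library. Xpo1 averaged 49.9 ± 10.5 CPM in TAC and 23.6 ± 4.98 CPM in sham (SD, n = 3 each). Its log2 fold change of 1.08 (SE 0.20) passed with an edgeR adjusted p of 0.0436. The call was lost on log2 of FPKM plus 1 (limma adjusted p = 0.0639, where 0.513% of genes were called higher). It was also lost without TAC replicate 2, TAC replicate 3 or any 1 sham library (edgeR adjusted p of 0.0694 to 0.230). Those fits called few genes higher, 0.145% without TAC replicate 2, 0.59% without TAC replicate 3, and 0.043%, 0.0503% and 0.0287% without sham replicates 1, 2 and 3.

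Among genes reported to respond to calcineurin or NFAT in heart, 2 of 8 tested were called higher, 0 lower and 6 did not pass, with a median log2 fold change of 0.95; Trpc6 and Il6 were too low to test. Without TAC replicate 1, Il6 could be tested and 6 of 9 were called higher, namely Nppb, Myh7, Acta1, Ptgs2, Il6 and Rcan1, and 0 lower. Il6 passed the filter in that fit only through the TAC libraries where it is high, so its call adds no support. Its counts were 4, 18 and 79 in TAC replicates 1, 2 and 3, and 1 in each sham library. Over all genes, that fit called 13.2% higher and 10% lower, and the fit with all 6 libraries 1.12% higher and 0.54% lower. The 2 genes called with all 6 libraries were Nppb, for natriuretic peptide B, at 167, 564 and 842 CPM in TAC replicates 1, 2 and 3 against 42.7, 36.9 and 47.4 CPM in sham, and Myh7, for the slow myosin heavy chain, at 133, 1190 and 787 CPM in TAC against 32.4, 45.1 and 51.9 CPM in sham. In both genes TAC replicate 1 was the lowest TAC library and yet above every sham library, whereas Rcan1, also on this list, was below them there. The edgeR adjusted p was 0.0242 for Nppb (log2 fold change 3.63, SE 0.52) and 0.0379 for Myh7 (4.03, SE 0.70), whose counts were fractional in all 6 libraries. Both calls were lost without TAC replicate 2 or without any 1 sham library, and that of Myh7 also without TAC replicate 3, with limma-voom (adjusted p = 0.05004) and on log2 of FPKM plus 1 or plus 0.1 (limma adjusted p of 0.0718 and 0.0660). Ptgs2, the inducible cyclooxygenase gene, named after its values were seen, was highest in TAC replicate 3 as Rcan1 was. It had 3.75, 7.86 and 22.8 CPM in TAC and 2.72, 2.35 and 2.45 CPM in sham, and did not pass (log2 fold change 2.19, SE 0.59, edgeR adjusted p = 0.0799).

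**Figure D4:**
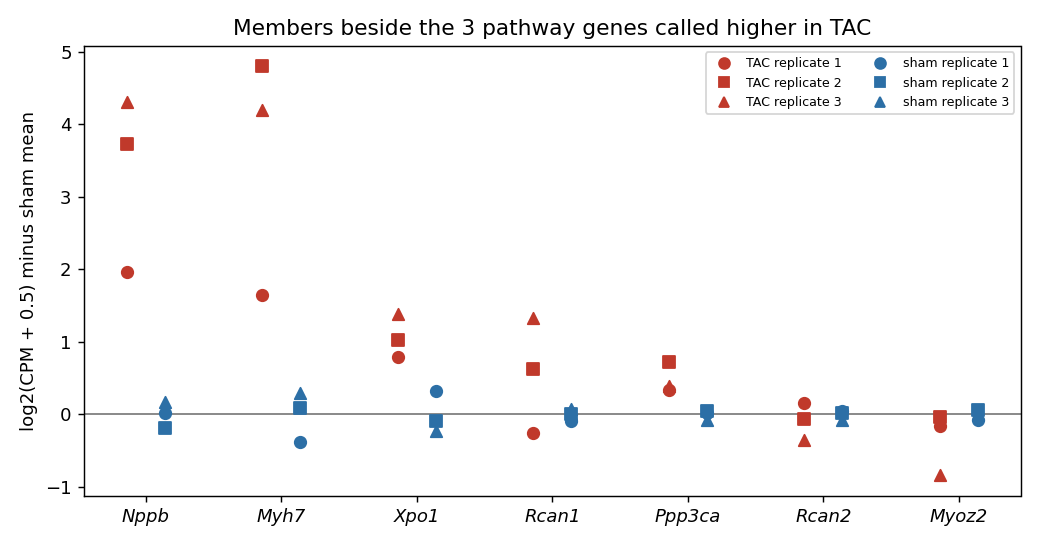
Log2 of CPM plus 0.5 in each library minus the mean of the sham libraries, TAC in red left of sham in blue, for the called genes Nppb, Myh7 and Xpo1 and for 4 members. TAC replicate 1 lies above the sham libraries in Nppb, Myh7, Xpo1 and Ppp3ca and below them in Rcan1.

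The other lists held no called gene. Among calcineurin genes outside the members, 12 were tested (median -0.13), and the most abundant were Ppia and Fkbp1a, which encode immunophilins that bind calcineurin-blocking drugs, at a log2 fold change of 0.34 (SE 0.17) for Ppia and 0.11 (SE 0.19) for Fkbp1a. Among 15 tested genes of calcium entry and calmodulin (median 0.069), the calmodulin gene Calm2 was at 0.35 (SE 0.16) and the calcium release channel gene Ryr2 at -0.39 (SE 0.14), with Ryr2 at 1105, 1064 and 918 CPM in TAC and 1325, 1426 and 1305 CPM in sham. Among 10 partners of NFAT at promoters (median 0.16), Mef2d was at -0.46 (SE 0.13) and Gata4 at 0.072 (SE 0.12). Among 10 genes of the CaMKII and class II HDAC arm (median -0.13), which also reaches MEF2, Camk2d was at 0.12 (SE 0.12) and Hdac5 at -0.51 (SE 0.16). The edgeR adjusted p of these 8 genes ran from 0.0880 to 0.743. Unadjusted p-values under 0.05 numbered 2 in the calcineurin list, 6 in the calcium list and 3 each in the partner and CaMKII lists, beside 25.6% over all tested genes. Without TAC replicate 1, the calcineurin list held 1 gene called higher and 2 lower, the calcium list 2 and 2, the partner list 1 and 0, and the CaMKII list 0 and 3. That fit called 13.2% of all genes higher and 10% lower.

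**Figure D5:**
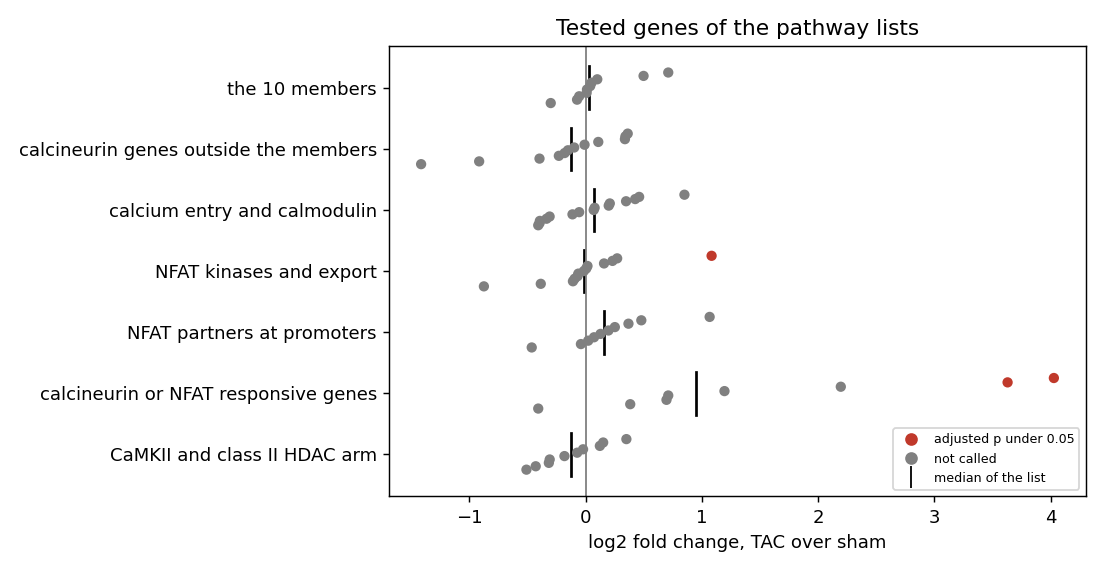
Log2 fold change, TAC over sham, of the tested genes of the 10 members and of each pathway list, with called genes in red, others in grey and a bar at each list's median. Only Xpo1, Nppb and Myh7 are called, and the members cluster about 0 with Rcan1 at 0.71 and Ppp3ca at 0.50.

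By likeness of log2 CPM over the 6 libraries, compared with 12772 other genes, the pattern of Rcan1 was nearest to Sfxn2, Il1r1 and Eif4e2 (Pearson r of 0.998, 0.995 and 0.995). Il1r1, the interleukin-1 receptor gene, had 21.7, 32.5 and 47.5 CPM in TAC replicates 1, 2 and 3, against 22.1, 23.2 and 25.5 CPM in sham. Ppp3ca was nearest to Ism1, Rsf1 and Serpinb8 (r of 1.00, 0.997 and 0.995) and Myoz2 to Ctsl, 4930523C07Rik and Trmt5 (r of 0.996, 0.992 and 0.991). With 6 points that share the same libraries, 185 genes had r above 0.95 with Rcan1, 336 with Ppp3ca and 86 with Myoz2, so these are descriptions only.

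Markers of the heart and of the cells that could enter it were read in the same libraries. All 8 cardiomyocyte markers were abundant, and of 7 skeletal muscle markers Myh4 was at 0 in every library. The summed CPM of 6 neutrophil markers was 21.9 to 123 in TAC and 2.87 to 8.06 in sham, and that of 7 macrophage and monocyte markers 637 to 956 in TAC and 499 to 577 in sham. That of 6 T lymphocyte markers was 6.39 to 9.98 in TAC and 4.16 to 4.41 in sham, and that of 4 B lymphocyte markers 8.12 to 34.9 in TAC and 4.62 to 7.76 in sham. These immune sums were higher in every TAC library than in every sham library, though narrowly for B lymphocytes (8.12 in TAC replicate 3, 7.76 in sham replicate 3). Among their markers, Csf1r, Lyz2, Cd3e, Trac and Cd79b overlapped between the groups. The summed CPM of 6 endothelial and endocardial markers was 1188 to 1303 in TAC and 1416 to 1530 in sham. That of 6 smooth muscle and pericyte markers was 852 to 1025 in TAC and 1040 to 1276 in sham, and that of 5 fibroblast markers 1079 to 1502 in TAC and 1374 to 1586 in sham. The endothelial and smooth muscle sums did not overlap, but not every marker in them was lower in TAC. Of the endothelial markers 2 had a positive and 4 a negative log2 fold change. Of the 6 tested, 1 was called lower, Tie1, beside 0.54% of all tested genes. Tie1 had 127, 110 and 115 CPM in TAC against 181, 184 and 180 CPM in sham (log2 fold change -0.63, edgeR adjusted p = 0.0414). Emcn had 106, 103 and 110 CPM in TAC against 87.7, 80.2 and 77.7 CPM in sham, and Npr3 was at 0.20. Of the smooth muscle and pericyte markers 1, Rgs5 (0.14), was positive and 5 were negative. Among single tested genes, 18.4% lay wholly higher and 13.1% wholly lower in TAC. The sums of 5 atrial markers overlapped, at 2664 to 3414 in TAC and 2168 to 3494 in sham. Most of this was Nppa, also on the list of responsive genes, at 1847, 2449 and 2046 CPM in TAC. The log2 fold changes were 0.38 for Nppa, 0.23 for Bmp10, -0.49 for Myl4, -0.60 for Myl7 and -0.96 for Sln, and none was called. The sums of 6 platelet and red cell markers were 1394 to 2459 in TAC and 663 to 1127 in sham. Markers called higher were 2 of 5 tested for neutrophils, 2 of 7 for macrophages and monocytes, and 2 of 6 for platelets and red cells. Over all tested genes 1.12% were called higher. Skeletal muscle markers summed to 418 to 1154 in TAC and 236 to 488 in sham. Nearly all of this was Acta1, which is also on the list of responsive genes. It had 417, 1151 and 1004 CPM in TAC replicates 1, 2 and 3, against 486, 232 and 405 CPM in sham. Tnni2 (log2 fold change -0.77) and Actn3 (-0.88, with overlap between the groups) were lower in TAC on average without being called. Myh1, Myh2, Myh4 and Tnnt3 were too low to test. Of these, Tnnt3 and Myh1 lay higher in every TAC library than in every sham library. Tnnt3 had 0.285 to 1.52 CPM in TAC and 0.154 to 0.277 CPM in sham, and Myh1 0.122 to 0.213 CPM in TAC and 0 in sham. The part of these cell type markers in the values of the members was not tested. On the first principal component of log2 CPM (54.6% of the variance), TAC replicate 1 lay at 0.65, between TAC replicates 2 and 3 at 48.9 and 53.5 and the sham libraries at -37.3 to -31.4.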

How the data were processed

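Total RNA of 6 hearts was enriched for messenger RNA with oligo(dT) beads and sequenced on an Illumina NovaSeq, per the labels' protocols. Strandedness is not stated there, so reads of genes overlapping on opposite strands may not be told apart. The authors deposited an estimated count and an FPKM value per gene and library, per the file headers. Bowtie2 2.2.8, HISAT2, StringTie 1.3.1 and DESeq2 on GRCm38 are named in the submitters' processing notes. Annotation and filters: not given in the sources used here. Totals were 22172718 to 25799573 estimated counts in TAC and 19747265 to 27549838 in sham, of which 25.7% to 30.5% were mitochondrially encoded. No libraries were duplicates: replicate pairs differed far beyond sampling noise, with a chi-square over its degrees of freedom from 11.8 to 101.

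GENCODE M21 (GRCm38) matched 22255 of 22298 identifiers. Estimated counts were rounded to whole numbers. The quasi-likelihood test of edgeR 4.0.16 (R 4.3.3) was two-sided, used TMM, took in all 6 libraries with no covariate and kept genes by filterByExpr, min.count 10, and the procedure was checked on simulated counts. The SE is the log2 fold change divided by the square root of F, and the 95% interval is built from it. Permutation tests of genes used log2 of CPM plus 0.5. Alternatives used DESeq2 1.42.0 and limma 3.58.1. Members and lists were chosen with earlier results of these data known. All members were named, with the called genes of each pathway list or else its 2 most abundant by FPKM, and the 3 nearest genes by Pearson r for the 3 members with the smallest p. Other genes were named after their values were seen. Sequences are from RefSeq (GRCm38.p6).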

Additional observations from a re-analysis of the deposited data

How the results depend on the processing

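The count of members called higher was 0, and became 1 with DESeq2's Wald test (7.81% of all genes called higher), 1 with limma-voom with sample weights (10.1%), 1 at an adjusted p under 0.10 (8.25%), and 0 to 2 over the fits that left out 1 library (2 without TAC replicate 1, Ppp3ca and Rcan1, beside 13.2%). No alternative called a member lower. Same-numbered TAC and sham libraries deviated from their group means with correlations of 0.011, -0.11 and -0.024, and differently numbered ones with -0.064 to 0.11. This showed no pairing by replicate number. It cannot exclude pairing, because deviations from the mean of 3 libraries constrain one another. The replicate block called 0 members (Ppp3ca log2 fold change 0.49, edgeR adjusted p = 0.129). It lost the calls of Xpo1 (edgeR adjusted p = 0.0972) and Myh7 (0.0550) but not Nppb (0.0459). Ppp3ca, Ppp3cb, Ppp3r1, Rcan1 and Myoz2 kept their sign in all alternatives run. Sign turned for values near 0. Nfatc1 was at -0.016 with DESeq2 size factors, -0.020 with upper-quartile factors, -0.016 with DESeq2's Wald test, -0.0060 and -0.0075 on log2 of FPKM plus 1 and plus 0.1, -0.015 without a filter on low counts, -0.016 without mitochondrially encoded genes, and ranged from -0.072 to 0.070 with 1 library left out. Nfatc2 was at -0.012, -0.014, -0.011, -0.11, -0.13, -0.010 and -0.012 under the same settings, with a range of -0.063 to 0.064. Nfatc4 was at 0.066 with limma-voom with sample weights. With 1 library left out, Nfatc3 ranged from -0.063 to 0.092, Nfatc4 from -0.24 to 0.0090 and Rcan2 from -0.22 to 0.034. The difference in share of Ppp3ca was 4.30 percentage points in FPKM, 5.84 in counts and 1.78 to 5.86 with 1 library left out, and that of Ppp3cb was -0.64, with 0.87 without TAC replicate 2. Xpo1, Nppb and Myh7 in each setting, and the lists with 1 library left out, were alternatives added after seeing the data. The cause of these changes was not tested.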
